A study of Mus musculus with 30 samples.

Results

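The 14 F1 livers described here came from crosses between CC019/TauUnc and CC037/TauUnc, a pair of Collaborative Cross strains, and each gene's total expression in them was placed between the levels of the inbred parents. They were chosen by their labels from 30 mice with liver RNA-seq counts, as the F1 mice of both cross directions. CC019 x CC037 F1 female 5 was left out, although its label differs from those of the kept females only in the replicate number. The F1s were compared with 6 CC019 and 9 CC037 inbreds, so that 29 mice entered the comparison. The study sequenced stranded poly(A) libraries of liver RNA to relate gene expression to the inheritance of DNA methylation, and the maternal strain is written first in each cross. Collaborative Cross strains are recombinant inbred lines, so mice of a strain are near copies of a single genome and an F1 carries one haplotype of each strain.

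All mice were about 4 months old, give or take a month by the study's account. The CC019 inbreds were 3 males and 3 females, and the CC037 inbreds were 4 males and 5 females. The 6 CC019 x CC037 F1s were 3 males and 3 females, and the 8 CC037 x CC019 F1s were 3 males and 5 females. Total counts per mouse ran from 27672008 to 63258035, with a median of 37888559, and the ranges of F1s and inbreds overlapped. The RNA of inbreds and F1s was sequenced in separate batches, and libraries of inbreds repeated in the F1 batch were not analysed here, so a difference between F1s and either strain cannot be told apart from a batch difference. A strain difference lies within the inbred batch, and the classes given first are therefore those of genes with a strain difference. The sum of 9 hepatocyte markers, led by albumin (Alb, mean 81600 CPM), was between 112000 and 180000 CPM in every mouse. In bulk tissue, fewer cells of a type and less RNA per cell cannot be told apart.

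A gene whose regulatory variants act only on the chromosome that carries them is expected to keep its allelic levels in an F1, so that the total lies at the mean of the parents. A diffusible factor acts on both alleles of its targets, and the F1 level then depends on how the factor behaves when it comes from a single parental genome. In quantitative genetics a level at the parental mean is called additive, a level at one parent dominant, and a level beyond both parents transgressive.

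The livers of 5 mice are described before the results because they held RNA of other tissues, with over 1000 CPM summed over the markers of exocrine pancreas, adrenal cortex or skeletal muscle. CC019 female 2 had 14500 CPM of pancreas markers, led by the chymotrypsinogen gene Ctrb1 (4470 CPM) and the lipase gene Pnlip (1970 CPM), and CC019 male 2 had 1030 CPM. No other mouse exceeded 62.2 CPM. F1 CC019 x CC037 male 3 had 3130 CPM of adrenal markers, with the steroidogenic genes Star (1240 CPM), Hsd3b1 (833 CPM) and Cyp11a1 (627 CPM) and the chromaffin cell gene Chga (344 CPM), against at most 10.7 CPM elsewhere. F1 CC019 x CC037 female 1 had 3060 CPM of muscle markers, led by Acta1 (1410 CPM), and also squamous epithelial genes that were near 0 in the other mice (Krt13 1090 CPM, Lor 974 CPM, Krt4 825 CPM). CC037 female 1 had 1360 CPM of muscle markers, and the remaining mice had at most 32.8 CPM. No listed marker of these tissues was at 0 in every mouse. Marker levels here are CPM of the unscaled total count, and the levels of single genes given further on are CPM scaled by TMM factors.

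Among 12779 autosomal genes with at least 0.5 CPM in most of the 29 mice, 3497 (27.4%) differed between CC019 and CC037 at an adjusted p of at most 0.05 in edgeR's quasi-likelihood test. F1s differed from CC019 at 3394 genes (26.6%) and from CC037 at 2232 genes (17.5%). These comparisons share the F1 libraries, and the strains had unequal numbers of mice. Each of the 3497 genes was placed by its pair of F1 comparisons. F1s were between both strains, differing from each, at 485 genes (13.9%), a class that includes additive genes. They differed from CC037 alone, and are called like CC019, at 693 genes (19.8%). They differed from CC019 alone, and are called like CC037, at 1444 genes (41.3%). Above both strains were 52 genes (1.49%), below both 19 genes (0.543%), and 804 genes (23%) differed from neither strain and were unresolved.

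Being like a strain by this count means only that a difference from it missed the threshold, so F1s were also tested against the midparent, the mean of both strains on the log2 scale. Over all autosomal genes, F1s were above the midparent at 1121 genes (8.77%) and below it at 1101 genes (8.62%). Of the 693 genes like CC019, 139 also departed from the midparent toward CC019, and 106 did so from the arithmetic midparent, the mean of the strain levels themselves. Of the 1444 genes like CC037, 505 departed from the midparent toward CC037, and 434 from the arithmetic midparent. Of the 485 genes between both strains, 35 lay toward CC019 and 62 toward CC037 of the midparent, and with the arithmetic midparent these counts were 9 and 29. The median F1 departure was 0.013 on the log2 scale over the 12779 genes and 0.011 over the 9282 genes without a strain call, values that TMM scaling itself brings close to 0, so they do not speak to an overall shift of the F1 libraries.

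**Figure D1:**
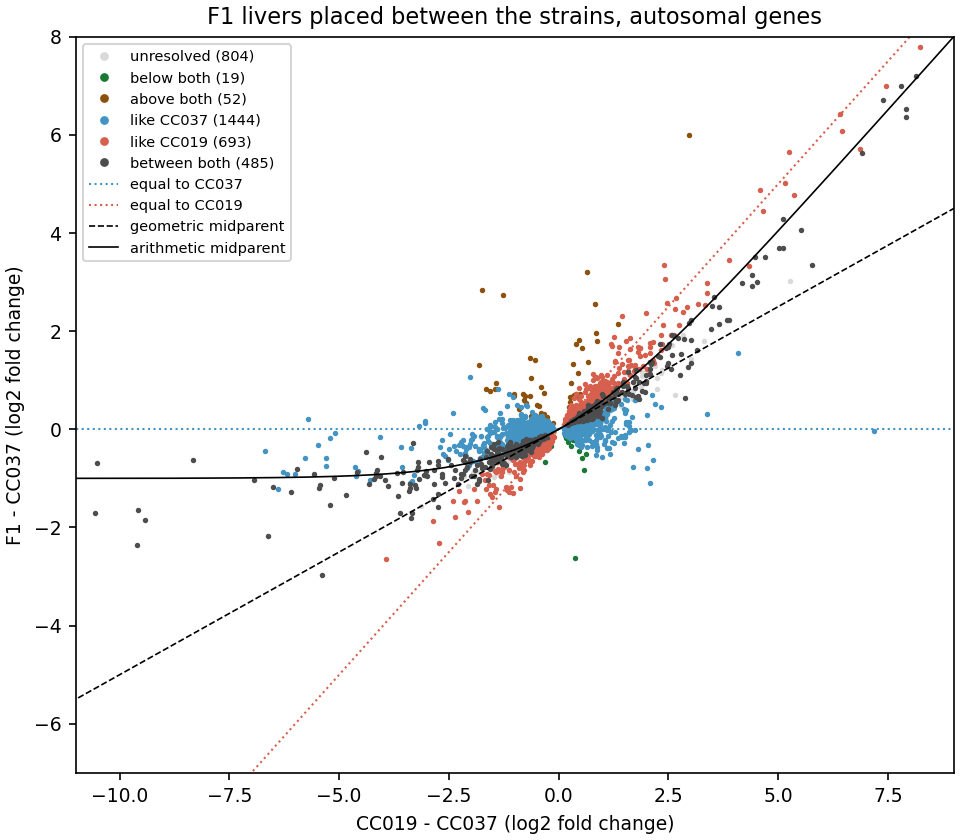
Each point is an autosomal gene with a strain difference, with the log2 fold change of CC019 over CC037 on the horizontal axis and of F1 over CC037 on the vertical axis, coloured by class. The dotted lines mark F1s equal to either strain, the dashed line the midparent on the log2 scale and the solid curve the arithmetic midparent. On a scale with 0 at CC037 and 1 at CC019, genes with an absolute log2 strain difference of 2 or more had a median of 0.482 (quartiles 0.339 and 0.606).

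The number of genes like CC037 depended on which mice were compared. In females alone, 2098 genes differed between the strains, with 289 between both, 707 like CC019 and 539 like CC037. In males alone, 4906 genes differed, with 411 between both, 417 like CC019 and 2732 like CC037. Without the 3 CC019 males, an alternative chosen after seeing the data, 2167 genes differed, with 365 between both, 715 like CC019 and 601 like CC037. The order of the classes like CC019 and like CC037 was therefore turned by leaving out these 3 mice, and no preference of F1s for CC037 can be stated for both sexes. The CC019 males were also apart from all other mice in the summed markers of endothelial cells (154 to 159 CPM, others 217 to 549 CPM) and of Kupffer cells and macrophages (94.5 to 132 CPM, others 155 to 1040 CPM), and the part of this in the class counts was not tested. The strain difference itself depended on sex at 2205 autosomal genes (17.3%) by an interaction test, 762 of them among the 3497. The departure of F1s from the midparent depended on sex at 14 genes (0.11%), 3 of them among the 3497. Without the 5 livers that held other tissue, also chosen after seeing the data, 3129 genes differed between strains, with 406 between both, 547 like CC019, 1315 like CC037, 45 above both and 14 below both.

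**Figure D2:**
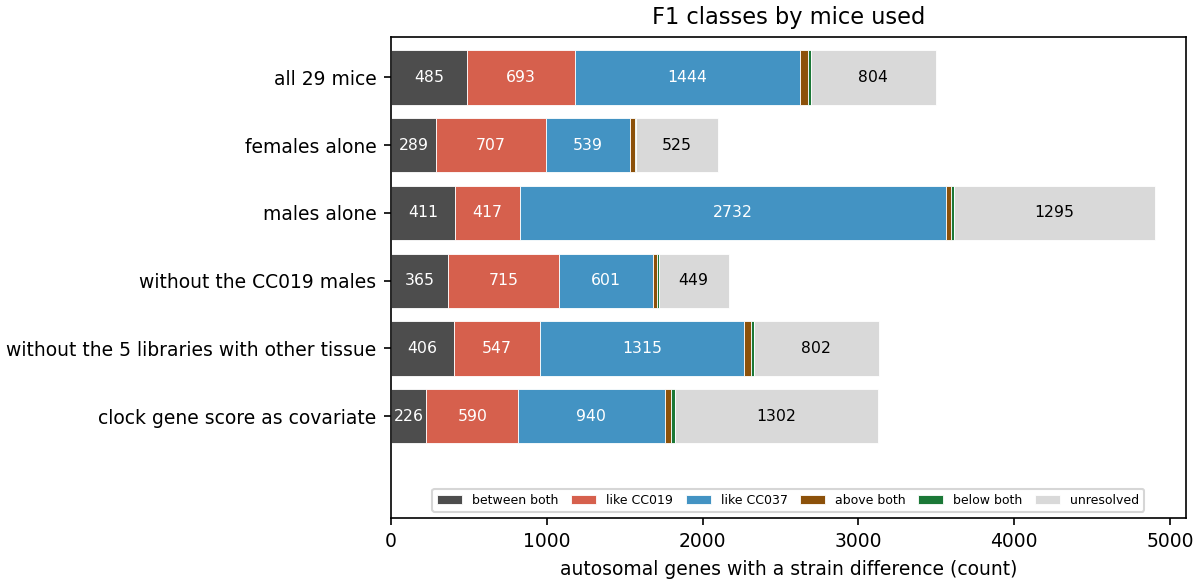
Bars give the number of autosomal genes with a strain difference in each class, for all 29 mice and for 5 other choices of mice or covariate. Genes like CC037 outnumber genes like CC019 with all mice (1444 and 693) and in males (2732 and 417), and the order turns in females (539 and 707) and without the CC019 males (601 and 715).

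The share of genes between both strains rose with the size of the strain difference. It was 3.25% of the 1783 genes with an absolute log2 fold change under 0.5, 19.1% of 981 genes from 0.5 to 1, 23.1% of 472 genes from 1 to 2, and 50.2% (131 genes) of the 261 genes at 2 or more. Over the same steps the share like CC037 went from 44.6% to 41.6%, 37.5% and 24.5%, and the share unresolved from 29.9% to 5.36% between the lowest and the highest step. The power to separate F1s from both parents also differs between these steps.

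A position was computed that needs no threshold on the F1s, the F1 mean minus the CC037 mean divided by the CC019 mean minus the CC037 mean, in CPM scaled by TMM factors. It is 0 at CC037, 1 at CC019 and 0.5 at the arithmetic midparent. Its median was 0.376 over the 3497 genes, and by size of strain difference 0.321, 0.386, 0.419 and 0.482. Genes and size steps were chosen by the same inbred values that form the position. The level and the trend therefore also hold that choice, made with unequal numbers of mice per strain, and its part was not tested. The 1922 genes higher in CC019 had a median position of 0.348 and the 1575 genes higher in CC037 one of 0.409. By sex the median was 0.474 in females and 0.302 in males, each over its own strain-differing genes. The 2098 genes chosen in females had a median position of 0.41 in males, and the 4906 genes chosen in males one of 0.459 in females.

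Single F1 mice could be placed in the same way, each against strain means over both sexes together. Positions of single males and females therefore also hold the sex differences of these genes. The medians by sex given above used strain means of the same sex, so the values are not comparable. Over the 3497 genes the median position of single mice ran from 0.245 (CC037 x CC019 female 2) to 0.562 (CC019 x CC037 male 4), with a median of 0.368. Over the 733 genes with a strain difference of 2-fold or more, it ran from 0.39 to 0.513 with a median of 0.449. Within these, mice lay at 0.31 to 0.445 over the 335 genes higher in CC019 and at 0.411 to 0.583 over the 398 genes higher in CC037. Among males, the crosses overlapped over the autosomal 2-fold genes (0.429 to 0.483 in CC019 x CC037, 0.425 to 0.457 in CC037 x CC019). Among females they did not (0.469 to 0.513 in CC019 x CC037, 0.39 to 0.459 in CC037 x CC019), and the difference was not tested. The 3 CC019 x CC037 females were also apart in the summed levels of 10 stellate cell and fibroblast markers, led by Ecm1 (758 to 1430 CPM, all other mice 319 to 650 CPM). The 1430 CPM was that of female 1, whose liver held RNA of muscle and squamous epithelium, so its sum may not be of liver cells. Their sums of 9 endothelial markers, led by Stab2, were 429 to 549 CPM against 313 to 462 CPM in the CC037 x CC019 females, and no marker of these lists was at 0 in every mouse. The part of these cells in the position was not tested.

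X-linked genes were kept apart, since a male has a single X chromosome, which comes from its mother. Of 375 X-linked genes tested, 74 differed between the strains. Their median position was 0.473 to 0.783 in the 3 CC019 x CC037 males and 0.261 to 0.428 in the 3 CC037 x CC019 males, so that the medians (0.662 and 0.33) lay toward the maternal strain and the groups did not overlap. In females the crosses overlapped, at 0.333 to 0.578 in CC019 x CC037 and 0.299 to 0.552 in CC037 x CC019. The strain means again pooled both sexes, so males are best compared with males and females with females. These values are descriptions without a test, and 3 mice against 3 cannot go below a p of 0.10 in an exact permutation test.

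**Figure D3:**
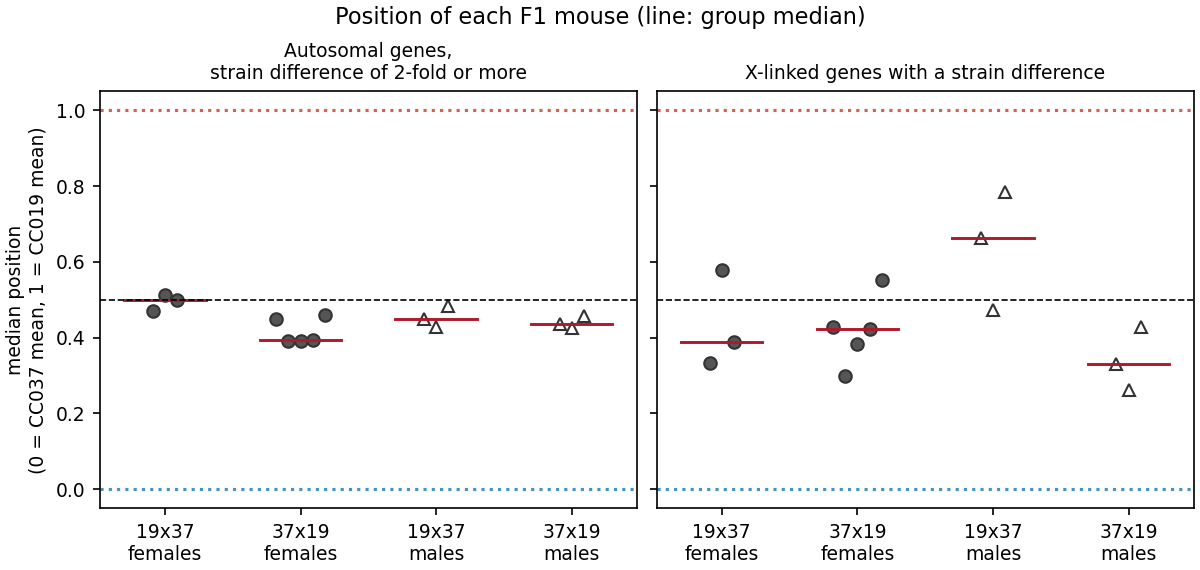
Each point is the median position of 1 F1 mouse, over autosomal genes with a strain difference of 2-fold or more (left) and over X-linked genes with a strain difference (right). The CC037 mean is at 0 and the CC019 mean at 1, both taken over males and females together. Crosses are written 19x37 (CC019 mother) and 37x19 (CC037 mother), and red lines are group medians, which for X-linked genes are 0.662 and 0.33 in the males of these crosses.

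The genes between both strains with the widest strain differences were low in a single strain. Ces2h, a carboxylesterase gene (chromosome 8, 105000853 to 105021178, GRCm38), was at 156 to 196 CPM in CC019 (median 173), 0.496 to 0.908 CPM in CC037 (median 0.748) and 49.5 to 79.8 CPM in F1s (median 66.9). The 3 groups did not overlap. F1s were below CC019 by a log2 fold change of -1.39 (SE 0.10, adjusted p = 2.3e-12) and above CC037 by 6.52 (SE 0.13, adjusted p = 9.1e-26), and they lay below the arithmetic midparent (-0.39, adjusted p = 0.0073). Ces2h also differed between the crosses, lower with a CC019 mother (-0.30, adjusted p = 0.028).

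AC117239.2, annotated as protein-coding on chromosome 18 and known here only by a clone name, was at 31.3 to 63.4 CPM in CC019, at most 0.401 CPM in CC037 and at 11.3 to 18.0 CPM in F1s. Its position was 0.34, and the distance to the arithmetic midparent missed the threshold (-0.55, SE 0.24, adjusted p = 0.12). Eno1b, annotated as an enolase gene, was at 115 to 136 CPM in CC019, 0.252 to 0.937 CPM in CC037 and 55.0 to 90.6 CPM in F1s. Its value is uncertain, because reads may be shared with the near-identical Eno1.

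Cyp46a1, the cholesterol 24-hydroxylase gene (chromosome 12, 108334381 to 108362234), was at 0.722 to 4.4 CPM in CC019, 214 to 415 CPM in CC037 and 57.7 to 388 CPM in F1s (median 116). CC019 x CC037 females 2 and 4 had 346 and 388 CPM, within the CC037 range, whereas the other F1s reached at most 167 CPM, below every CC037 mouse. F1s were below CC037 by -1.04 (SE 0.29, adjusted p = 0.011), with a position of 0.52. In females alone this difference missed the threshold (-0.87, adjusted p = 0.058), as it did with the CC019 x CC037 F1s alone (-0.65, adjusted p = 0.26). The same pair of females was also highest in Sult1c2, a sulfotransferase gene of the conjugation list (16.0 and 17.0 CPM, other F1s 1.76 to 6.55 CPM). These females had high stellate cell and fibroblast sums (837 and 758 CPM) and the highest endothelial sums of all mice (479 and 549 CPM). Female 1 of this cross, which held other tissue, had sums of 1430 and 429 CPM, and in both genes it was among the other F1s. The part of these cells was not tested.

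Dct, which encodes dopachrome tautomerase of the melanin pathway, was at 0 in 5 CC019 mice and at 0.0667 CPM in the remaining one, and was at 6.85 to 34.0 CPM in CC037. F1s had 0.839 to 13.8 CPM, below CC037 by a log2 fold change of -1.70 (SE 0.41, adjusted p = 0.0037). Within F1s it was lower with a CC019 mother (0.839 to 4.54 CPM) than with a CC037 mother (2.86 to 13.8 CPM), by -1.73 (adjusted p = 0.00069, sex as covariate). Tiam2, an exchange factor for the GTPase Rac, was at 0.0361 to 0.337 CPM in CC019, 12.1 to 21.9 CPM in CC037 and 2.4 to 15.4 CPM in F1s. It too was lower with a CC019 mother (-0.73, adjusted p = 0.035), and its position was 0.57.

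The genes like CC019 named next departed from the midparent with all 29 mice, and each of these calls was lost in some sex or cross alone. Plxnb1, a receptor for semaphorin 4D (chromosome 9, 109095389 to 109119917), was at 41.4 to 80.2 CPM in CC019 (median 66.3), 8.03 to 27.2 CPM in CC037 (median 15.8) and 40.0 to 79.0 CPM in F1s (median 54.4). Every F1 was above every CC037 mouse. F1s were above CC037 by 1.65 (SE 0.17, adjusted p = 1.2e-08) and above the midparent by 0.72 (SE 0.14, adjusted p = 0.00054), and against the arithmetic midparent the adjusted p was 0.053. The midparent call was lost in females alone (0.61, adjusted p = 0.064).

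Lrpap1, the receptor-associated chaperone of the LDL receptor family (chromosome 5, 35091501 to 35105766), was at 52.8 to 58.0 CPM in CC019, 96.0 to 301 CPM in CC037 and 56.1 to 96.7 CPM in F1s. The F1 ranges met CC019 and barely reached the lowest CC037 mouse. F1s were below CC037 by -1.14 (SE 0.13, adjusted p = 1.1e-07) and below the midparent by -0.39 (SE 0.12, adjusted p = 0.02), but the midparent call was lost in females alone (-0.40, adjusted p = 0.13), in males alone (-0.35, adjusted p = 0.071) and with the CC019 x CC037 F1s alone (-0.53, adjusted p = 0.051). The same held with the CC037 x CC019 F1s alone (-0.29, adjusted p = 0.2), without the 5 livers that held other tissue (-0.39, adjusted p = 0.066) and without the CC019 males (-0.38, adjusted p = 0.07). Without CC037 female 2, F1s were above CC019 (0.36, adjusted p = 0.015). Within F1s, the CC019 allele of Lrpap1 was lower than the CC037 allele in all 14 mice (-0.75, adjusted p = 2.7e-10).

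P2ry2, a receptor for extracellular nucleotides, was at 8.32 to 12.7 CPM in CC019, 13.9 to 26.2 CPM in CC037 and 9.34 to 14.2 CPM in F1s. F1s were below CC037 by -0.75 (SE 0.09, adjusted p = 7e-07), and the CC019 allele was again the lower one in all 14 mice (-1.18, adjusted p = 5.3e-11). Chp1, a calcineurin-like calcium-binding protein, was at 183 to 223 CPM in CC019, 288 to 390 CPM in CC037 and 188 to 256 CPM in F1s, with every F1 below every CC037 mouse (-0.58, SE 0.06, adjusted p = 3.6e-08). The midparent call of P2ry2 (-0.29, adjusted p = 0.017) was lost in females alone (-0.09, adjusted p = 0.5), with the CC019 x CC037 F1s alone (-0.32, adjusted p = 0.096) and with the CC037 x CC019 F1s alone (-0.27, adjusted p = 0.1). It was lost as well without the CC019 males (-0.23, adjusted p = 0.12) and with the clock score as covariate (-0.20, adjusted p = 0.35). That of Chp1 (-0.21, adjusted p = 0.011) was lost in females alone (-0.19, adjusted p = 0.17) and in males alone (-0.22, adjusted p = 0.066). The same was seen with the CC019 x CC037 F1s alone (-0.17, adjusted p = 0.15) and with the clock score as covariate (-0.19, adjusted p = 0.15). With the replicate number as block, F1s were above CC019 for Chp1 (0.17, adjusted p = 0.044), which moves it to the class between both.

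Osbpl3, an oxysterol-binding protein gene, had an F1 mean at the CC019 mean, but the F1 mice were spread widely. It was at 6.53 to 11.4 CPM in CC019, 0.77 to 2.52 CPM in CC037 and 1.71 to 23 CPM in F1s. The 5 CC037 x CC019 females had 1.71 to 3.06 CPM, near CC037, while the 6 F1 males had 7.62 to 23 CPM. The class of Osbpl3 therefore averages unlike mice, although the midparent departure by sex missed the threshold (adjusted p = 0.52). Its midparent call (1.34, adjusted p = 0.0051) was lost in females alone (0.85, adjusted p = 0.21) and with the CC037 x CC019 F1s alone (0.91, adjusted p = 0.087). Against the arithmetic midparent the departure was 0.79 (adjusted p = 0.16). Mapkapk3, a kinase downstream of p38, had a position of 0.54 and a midparent departure close to the threshold (0.61, SE 0.21, adjusted p = 0.047), so its class is weakly held. The midparent call was lost in females alone (0.43, adjusted p = 0.2), with the CC019 x CC037 F1s alone (0.86, adjusted p = 0.061), with the CC037 x CC019 F1s alone (0.40, adjusted p = 0.24) and without the 5 livers that held other tissue (0.39, adjusted p = 0.18). The call was also lost without the CC019 males (0.37, adjusted p = 0.29), with the replicate number as block (0.61, adjusted p = 0.062), with the clock score as covariate (0.39, adjusted p = 0.46) and with all 30 mice (0.58, adjusted p = 0.054). Leaving out a single mouse ended the call for 16 of 29 mice. Among other settings, F1s differed from CC019 in females alone (-0.98, adjusted p = 0.024), without the 5 livers that held other tissue (-1.04, adjusted p = 0.0038) and without the CC019 males (-1.18, adjusted p = 0.0085). They also did so with the CC037 x CC019 F1s alone (-0.91, adjusted p = 0.014) and with sex as covariate (-0.66, adjusted p = 0.017). DESeq2 (-0.70, adjusted p = 0.039), DESeq2 size factors in edgeR (-0.70, adjusted p = 0.049) and all 30 mice (-0.73, adjusted p = 0.038) gave the same. So did leaving out a single mouse, for 6 of 29 mice.

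The genes like CC037 with the largest excess in CC019 were Bhlhe41, Usp2 and Ugt1a10. Bhlhe41, a repressor in the circadian clock, was at 6.71 to 17.6 CPM in CC019, 0.78 to 6.51 CPM in CC037 and 0.316 to 9.06 CPM in F1s (median 0.93). F1s were below CC019 by -2.36 (SE 0.57, adjusted p = 0.0028) and below the midparent by -1.34 (SE 0.48, adjusted p = 0.05 after rounding), and the former call was lost in males alone (-1.13, adjusted p = 0.12) and with the CC019 x CC037 F1s alone (-1.53, adjusted p = 0.07). The same held with the clock score as covariate (-0.35, adjusted p = 0.74). The midparent call was lost in males alone (-0.66, adjusted p = 0.36) and with the CC019 x CC037 F1s alone (-0.51, adjusted p = 0.54). It was lost as well without the CC019 males (-1.48, adjusted p = 0.073) and, with a single mouse left out, for 22 of 29 mice. Usp2, a deubiquitinase with rhythmic expression, was at 15.3 to 31.5 CPM in CC019, 3.99 to 11.4 CPM in CC037 and 1.24 to 18.7 CPM in F1s (median 1.92), and F1s were below CC019 by -2.45 (SE 0.44, adjusted p = 0.00013) and below the midparent by -1.61 (SE 0.37, adjusted p = 0.0028), the latter lost in males alone (-1.23, adjusted p = 0.19) and with the CC019 x CC037 F1s alone (-0.74, adjusted p = 0.18). All 8 CC037 x CC019 F1s had 1.24 to 2.08 CPM of Usp2, less than any CC037 mouse, and these F1s alone were below CC037 (-2.09, adjusted p = 4.9e-07), as were females alone (-1.30, adjusted p = 0.029) and all F1s but CC019 x CC037 male 2 (-1.23, adjusted p = 0.0072). For Bhlhe41 the CC037 x CC019 F1s alone were below CC037 too (-1.53, adjusted p = 0.039). The class like CC037 of these genes therefore averages unlike F1 mice. Both genes were higher with a CC019 mother (Bhlhe41 1.74, adjusted p = 0.016, Usp2 2.01, adjusted p = 0.012), and the crosses also differed in clock phase among males, whose part was not tested. With the clock phase score described further on as covariate, the midparent departures were 0.09 for Bhlhe41 (adjusted p = 0.93) and -0.73 for Usp2 (adjusted p = 0.17).

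Ugt1a10, a glucuronosyltransferase gene that shares exons with its neighbours and is uncertain for that reason, was at 322 to 511 CPM in CC019, 90 to 201 CPM in CC037 and 72.2 to 287 CPM in F1s. F1s were below CC019 by -1.40 (SE 0.19, adjusted p = 3e-06). Every CC019 mouse was above every F1 mouse, while F1s and CC037 overlapped. The midparent call (-0.57, adjusted p = 0.011) was lost in males alone (-0.29, adjusted p = 0.35) and with the CC019 x CC037 F1s alone (-0.67, adjusted p = 0.062). Neither did it hold without the CC019 males (-0.49, adjusted p = 0.07) or with the clock score as covariate (-0.49, adjusted p = 0.16).

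The genes like CC037 with the largest excess in CC037 were near 0 in CC019, and their F1 levels were near or above the arithmetic midparent. Tmeff1, a membrane protein with follistatin domains (chromosome 4, 48585174 to 48663131), was at most 0.172 CPM in CC019, at 6.36 to 10.1 CPM in CC037 and at 4.15 to 7.37 CPM in F1s. It was above the arithmetic midparent (0.54, SE 0.17, adjusted p = 0.028), and its distance to CC037 (-0.45, adjusted p = 0.061) passed the threshold with the CC037 x CC019 F1s alone (-0.59, adjusted p = 0.036), without the 5 livers that held other tissue (-0.49, adjusted p = 0.039) and without the CC019 males (-0.45, adjusted p = 0.027). The same was seen with sex as covariate (-0.46, adjusted p = 0.026) and with DESeq2 (-0.46, adjusted p = 0.00042). Leaving out CC019 male 2, CC019 female 1, CC019 female 3 or CC019 x CC037 female 2 did the same (adjusted p = 0.026 to 0.044). The class of Tmeff1 is therefore weakly held. Aqp4, a water channel, was at most 0.228 CPM in CC019, at 1.26 to 21.1 CPM in CC037 and at 1.55 to 8.95 CPM in F1s, with a position of 0.46, and H2-Eb1, a class II histocompatibility chain, was at 0.152 to 0.872 CPM, 10.5 to 43.5 CPM and 9.82 to 27.6 CPM in the same order. The departure from the arithmetic midparent missed the threshold for both (adjusted p = 0.88 for Aqp4 and 0.36 for H2-Eb1), so these like CC037 calls do not separate dominance from additivity. F1s passed the threshold below CC037 for Aqp4 in males alone (-1.08, adjusted p = 0.021), with sex as covariate (-0.67, adjusted p = 0.045) and without CC037 female 3 (-1.02, adjusted p = 0.046). For H2-Eb1 they did so in females alone (-0.86, adjusted p = 0.016). Within F1s, the CC019 allele of H2-Eb1 was lower than the CC037 allele in all 14 mice (-6.07, adjusted p = 6.1e-15).

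**Figure D4:**
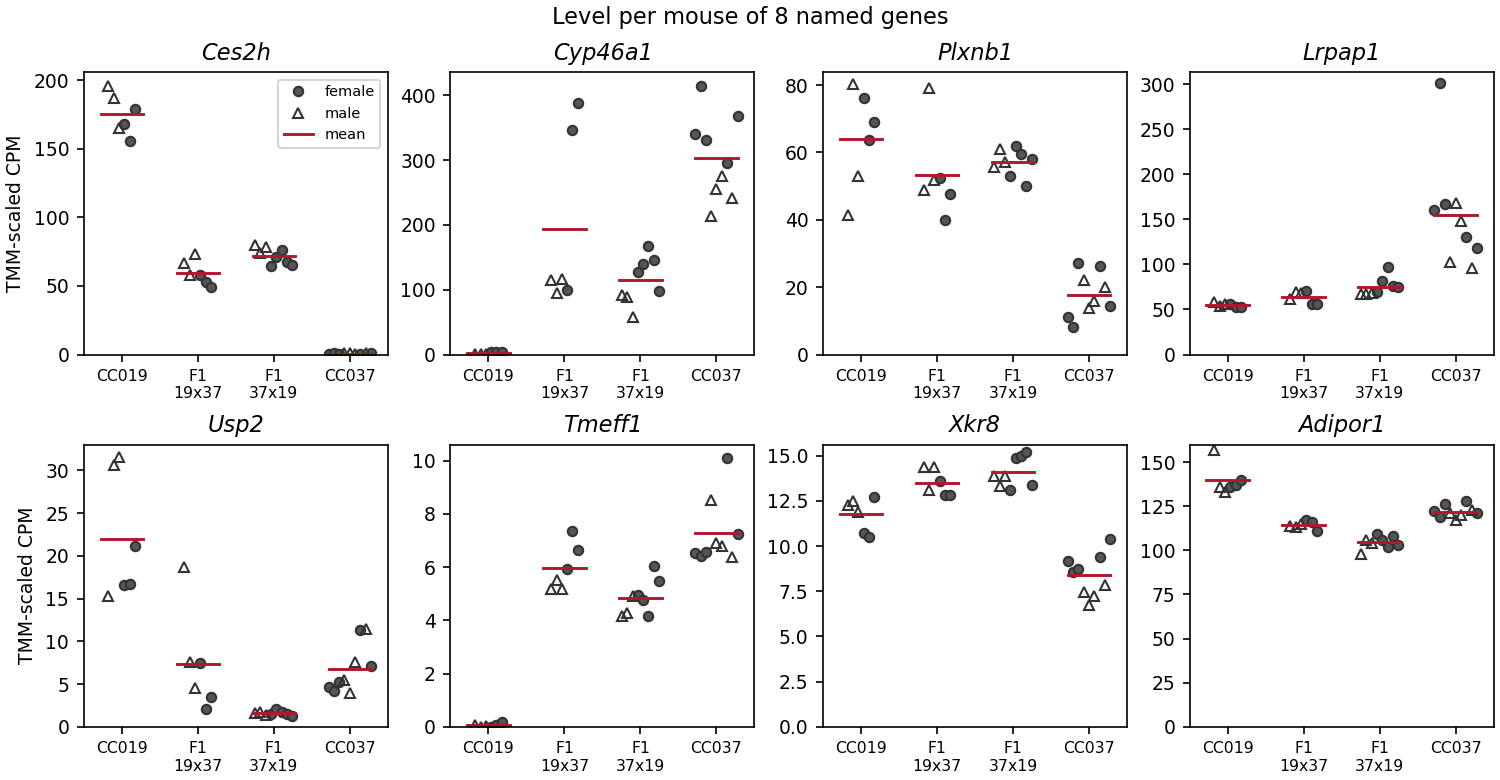
TMM-scaled CPM per mouse of 8 named genes in CC019, both F1 crosses and CC037, with filled circles for females, open triangles for males and red lines for means. F1s lie between the strains for Ces2h (49.5 to 79.8 CPM), at the CC019 end for Plxnb1 and Lrpap1, and with all 29 mice outside both strains for Xkr8 (12.8 to 15.2 CPM) and Adipor1 (97.7 to 117 CPM), calls that were lost in males alone.

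Genes outside both strains were few among protein-coding genes, and mostly small in size. Of the 12779 autosomal genes, 281 were above both strains (2.2%) and 254 below both (1.99%). Protein-coding genes made 377 of 11820 (3.19%), with a median distance to the nearer strain of 0.29 on the log2 scale. In 33 of them the ranges of F1s and of all inbreds were apart, and 11 were at a distance of 2 or more. Among the latter, without a strain call, Krtap31-2 was below both strains (-6.40 from CC037) and Gm49450 above both (4.31 from CC019). Among strain-differing protein-coding genes the count was 40 of 3224 (1.24%). Of the 377 genes, 153 were outside both strains in females alone as well and 82 in males alone.

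Xkr8, a phospholipid scramblase activated in dying cells, was at 10.5 to 12.7 CPM in CC019, 6.76 to 10.4 CPM in CC037 and 12.8 to 15.2 CPM in F1s, so that every F1 was above every inbred. F1s were above CC019 by 0.23 (SE 0.07, adjusted p = 0.014) and above CC037 by 0.72 (SE 0.06, adjusted p = 2.8e-10). Mtln, a mitochondrial micropeptide gene, was at 11 to 14 CPM in CC019, 7.31 to 10.4 CPM in CC037 and 12.1 to 17.8 CPM in F1s, overlapping CC019. The difference from CC019 was lost for Xkr8 in males alone (0.16, adjusted p = 0.094) and with the CC019 x CC037 F1s alone (0.20, adjusted p = 0.14). The call was also lost without the 5 livers that held other tissue (0.22, adjusted p = 0.062) and with the clock score as covariate (0.24, adjusted p = 0.1). For Mtln it was lost in males alone (0.16, adjusted p = 0.31), with the CC019 x CC037 F1s alone (0.23, adjusted p = 0.095), without the 5 livers that held other tissue (0.20, adjusted p = 0.13) and with the clock score as covariate (0.22, adjusted p = 0.17). The same held without a filter on low counts (0.21, adjusted p = 0.057), with all 30 mice (0.20, adjusted p = 0.055) and without CC019 female 2 (0.20, adjusted p = 0.059) or female 3 (0.18, adjusted p = 0.08).

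Adipor1, an adiponectin receptor (chromosome 1, 134415378 to 134433351), was at 133 to 157 CPM in CC019, 117 to 128 CPM in CC037 and 97.7 to 117 CPM in F1s. F1s were below CC019 by -0.36 (SE 0.04, adjusted p = 8.4e-08) and below CC037 by -0.17 (SE 0.04, adjusted p = 0.0013), the latter lost in males alone (-0.16, adjusted p = 0.15) and with the CC019 x CC037 F1s alone (-0.10, adjusted p = 0.16). Its CC019 allele was the lower one on average and the higher one in 1 of 14 F1s (-0.27, adjusted p = 0.00082), whereas the CC019 strain was the higher one. Anp32b, an acidic nuclear phosphoprotein gene, was at 67.6 to 78.1 CPM in CC019, 58.9 to 66.1 CPM in CC037 and 50.9 to 67.2 CPM in F1s. Its differences were -0.36 (adjusted p = 1.3e-06) and -0.15 (adjusted p = 0.012), and the difference from CC037 was lost in females alone (-0.12, adjusted p = 0.092), in males alone (-0.17, adjusted p = 0.2) and with the CC019 x CC037 F1s alone (-0.12, adjusted p = 0.15).

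Pseudogenes stood out by share and by size. Of 255 autosomal pseudogenes tested, 96 were outside both strains (37.6%), 51 above and 45 below, with a median distance of 1.29, and 39 were at a distance of 2 or more. In 57 of the 96 the ranges of F1s and inbreds were apart. Of the 96, 79 were outside both strains in females alone as well and 74 in males alone. Gm7833, a processed pseudogene on chromosome 6, was at 6.91 to 12.7 CPM in CC019, 7.0 to 11.2 CPM in CC037 and at most 0.0775 CPM in F1s. Gm9081 on chromosome 10 was at 10.9 to 25.5 CPM, 10.2 to 19.7 CPM and 0.0229 to 0.129 CPM in the same order, lower in F1s than in CC037 (adjusted p = 2.5e-23), with 1 to 4 counts per F1.

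In the other direction, Gm12155 on chromosome 11 was at 8.97 to 12.1 CPM in CC019, 5.61 to 9.34 CPM in CC037 and 132 to 738 CPM in F1s, and Gm17271 on chromosome 15 at 0.4 to 1.3 CPM, 0.508 to 0.777 CPM and 9.4 to 13.6 CPM. In all 4 of these pseudogenes the inbred strains overlapped and no F1 reached an inbred. Reads of such genes can be shared with near-identical copies, so their counts are uncertain, and cross type and RNA batch cannot be told apart for them. A pair of protein-coding genes above both strains rested on single mice that held other tissue. Star had an F1 median of 0.841 CPM and a highest value of 1140 TMM-scaled CPM, and Krt10 a median of 1.21 CPM and a highest value of 326 CPM.

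Within F1 mice the alleles share a nucleus and a library, so their ratio does not involve the inbred batch. Among 4052 autosomal genes with allelic counts that could be assigned, 1942 (47.9%) had unequal alleles. Of the 256 such genes between both strains, 233 (91%) had unequal alleles in the direction of the strain difference, with a median strain difference of 0.89 and a median allelic difference of 0.75 in that direction. For genes like CC019 it was 199 of 274 (72.6%, medians 0.44 and 0.36). For genes like CC037 it was 298 of 552 (54%, medians 0.47 and 0.21), with 28 in the opposite direction. Over all 1375 strain-differing genes the count was 868 (63.1%), with medians of 0.5 and 0.31. These genes were chosen by their strain difference and not by their allelic ratio, so the paired medians are not on equal terms. The class like CC037 also depended on the CC019 males (1444 genes with all mice, 601 without them), and the cause of the differences between classes was not tested.

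The crosses themselves differed at 579 autosomal genes (4.53%) with sex as covariate, and at 154 of the 3497 strain-differing genes (4.4%), 86 of them among the genes like CC037 (5.96%). This count depended on the setting, at 60 genes without the covariate and 873 without the 2 F1 livers that held other tissue, an alternative chosen after seeing the data. Both crosses were of the same RNA batch. Their males differed in the clock phase score described further on (1.46 to 3.04 in CC019 x CC037, -2.6 to -1.24 in CC037 x CC019). The part of clock phase in these counts, and in the cross differences of single genes such as Ces2h, Dct and Tiam2, was not tested.

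The gene lists that follow are counted without a test, and their counts can be read against those of all autosomal genes, of which 27.4% had a strain difference, with 41.3% of these like CC037 and 19.8% like CC019, and of which 8.77% were above and 8.62% below the midparent. Of 20 circadian clock and output genes, 4 were above the midparent and 10 below it, with a median departure of -0.41 against 0.013 over all genes. All 6 with a strain difference were like CC037. Npas2, a clock activator, was at 0.469 to 1.01 CPM in CC019, 1.25 to 7.71 CPM in CC037 and 0.66 to 11.5 CPM in F1s (median 7.36), and was above the midparent by 2.06 (adjusted p = 8.7e-05). Arntl, whose protein pairs with that of Npas2, was at 2.7 to 12.2 CPM in CC019, 8.36 to 24.4 CPM in CC037 and 5.9 to 32.4 CPM in F1s, overlapping both (midparent departure 1.29, adjusted p = 0.00028). The midparent call of Npas2 was lost in males alone (1.64, adjusted p = 0.085) and with the CC019 x CC037 F1s alone (1.31, adjusted p = 0.062). That of Arntl was lost in males alone (0.85, adjusted p = 0.16) and with the CC019 x CC037 F1s alone (0.78, adjusted p = 0.11). With the clock score of the next paragraph as covariate, the departures were -0.03 for Npas2 (adjusted p = 0.96) and 0.05 for Arntl (adjusted p = 0.87), but both genes are part of that score.

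A score of clock phase, taken as the mean log2 level of the output genes Ciart, Dbp and Tef less the mean of the activators Clock, Arntl and Npas2, differed in range between the groups. It was 3.07 to 3.13 in CC019 females and 1.56 to 3.12 in CC019 males. It was -1.31 to 1.99 in CC037 females, 0.84 to 1.88 in CC037 males, and -2.66 to -1.15 in F1 females. F1 males were split by cross, at 1.46 to 3.04 in the 3 CC019 x CC037 males and -2.6 to -1.24 in the 3 CC037 x CC019 males. With the score as covariate, 3123 genes differed between strains, with 226 between both, 590 like CC019, 940 like CC037 and 1302 unresolved, and the midparent counts were 610 above and 458 below. The score itself differed between strains and F1s, so a call lost with it as covariate does not separate clock phase from cross type. The hour of collection was not analysed here, and its part in the F1 counts was not tested.

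Lipid synthesis genes were higher in CC037 where the strains differed. Of 23 fatty acid and triglyceride synthesis genes, 13 had a strain difference, all with the higher level in CC037, and 9 of these were like CC037, against 27.4% and 41.3% over all genes. F1s were above the midparent at 2 of the 23 and below it at 4 (median departure 0.11). Fasn, fatty acid synthase, was at 229 to 673 CPM in CC019, 951 to 3250 CPM in CC037 and 468 to 4330 CPM in F1s, above CC019 by 1.97 (adjusted p = 0.00088). Its midparent departure (0.88, adjusted p = 0.035) was lost in females alone (0.52, adjusted p = 0.46) and with the CC019 x CC037 F1s alone (0.38, adjusted p = 0.52). It was lost as well without the CC019 males (0.74, adjusted p = 0.16). With the clock score as covariate the departure was larger but missed the threshold (1.07, adjusted p = 0.1). It was also lost without CC019 male 1 or 3, CC019 x CC037 male 3, CC037 x CC019 male 2 or 3, or CC037 x CC019 female 3 (0.71 to 0.84, adjusted p = 0.051 to 0.077). Srebf1, the transcription factor that drives this pathway, was at 174 to 369 CPM in CC019, 273 to 575 CPM in CC037 and 271 to 923 CPM in F1s (midparent departure 0.86, adjusted p = 0.0013), a call lost in females alone (0.59, adjusted p = 0.12) and with the CC019 x CC037 F1s alone (0.47, adjusted p = 0.16).

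Of 22 cholesterol synthesis genes, 7 had a strain difference, all higher in CC037, and 1 was above the midparent, Insig1, a feedback regulator of the pathway (182 to 445, 258 to 468 and 258 to 879 CPM in CC019, CC037 and F1s, adjusted p = 0.0063), which was lost in females alone (0.50, adjusted p = 0.14) and with the CC019 x CC037 F1s alone (0.38, adjusted p = 0.2). Among 25 fatty acid oxidation and ketogenesis genes, 11 had a strain difference, 9 of them higher in CC019, and F1s were above the midparent at 1 and below it at 5 (median -0.07). Pdk4, a kinase that restrains glucose oxidation, was at 1.88 to 3.99 CPM in CC019, 7.01 to 66.3 CPM in CC037 and 5.64 to 70.8 CPM in F1s (midparent departure 1.69, adjusted p = 0.0019), but missed the threshold against the arithmetic midparent (adjusted p = 0.069), in males alone (1.74, adjusted p = 0.052) and with the clock score as covariate (1.10, adjusted p = 0.12). Cpt1a, the carnitine transferase of mitochondrial import, was at 463 to 890 CPM, 344 to 752 CPM and 271 to 709 CPM (-0.62, adjusted p = 0.0033), a call lost in females alone (-0.61, adjusted p = 0.082) and with the CC019 x CC037 F1s alone (-0.51, adjusted p = 0.085). The same was seen with the clock score as covariate (-0.61, adjusted p = 0.065).

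Of 17 bile acid genes, 3 had a strain difference (27.4% over all genes) and 2 were below the midparent (8.62% over all genes, median -0.14), Abcb4 and Cyp8b1. Abcb4, the phospholipid exporter, was at 413 to 572 CPM in CC019, 224 to 397 CPM in CC037 and 211 to 369 CPM in F1s, and every F1 was below every CC019 mouse (-0.79, adjusted p = 4e-06). Its midparent call was lost in females alone (-0.36, adjusted p = 0.084) and with the CC019 x CC037 F1s alone (-0.37, adjusted p = 0.051). Cyp8b1, the sterol 12-hydroxylase, was at 277 to 583 CPM, 212 to 448 CPM and 155 to 337 CPM, below the midparent by -0.59 (adjusted p = 0.0024), a call lost without the CC019 males (-0.39, adjusted p = 0.062).

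Drug-metabolising genes were counted as 2 lists. Of 31 cytochromes P450 of families 1 to 3, 5 had a strain difference (27.4% over all genes), 3 of these were between both strains, and F1s were above the midparent at 1 and below it at 2. Cyp2c23, an arachidonic acid epoxygenase, was at 314 to 634 CPM in CC019, 22.3 to 39.2 CPM in CC037 and 106 to 281 CPM in F1s, with no overlap, at a position of 0.4 and with the CC019 allele higher in 14 of 14 F1s (4.08, adjusted p = 4.4e-16). Of 37 conjugation genes, 14 had a strain difference, 8 of them like CC037, and 9 were below and 1 above the midparent (median -0.16). Ugt2b37 depended on sex, at 5.39 to 20.1 CPM in CC019 males, 0.555 to 2.28 CPM in CC037 males and 0.365 to 1.15 CPM in F1 males, so that F1 and CC037 males overlapped. In females it was at 34.1 to 72.2 CPM in CC019, 15.3 to 74.7 CPM in CC037 and 1.08 to 16.9 CPM in F1s, which met only the lower end of CC037.

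Of 20 acute phase genes, 3 had a strain difference, and F1s were above the midparent at 1 and below it at 4 (median -0.31). Saa2, an acute phase apolipoprotein, was at 1090 to 3240 CPM in CC019 males, 27.4 to 108 CPM in CC019 females, 10.1 to 18.1 CPM in CC037 males and 15.7 to 67.1 CPM in CC037 females other than female 3, which had 8240 CPM. F1s were at 13.3 to 286 CPM (midparent departure -4.10, adjusted p = 0.0064), and the call was lost without CC037 female 3 (-1.48, adjusted p = 0.061), in females alone (-2.43, adjusted p = 0.19), with the CC019 x CC037 F1s alone (-4.83, adjusted p = 0.083) and with the CC037 x CC019 F1s alone (-3.72, adjusted p = 0.081). The call was also lost without the CC019 males (-2.23, adjusted p = 0.14) and with the replicate number as block (-2.04, adjusted p = 0.18). A2m, a protease inhibitor, was at 0.0429 to 1.15 CPM in CC019, at most 0.216 CPM in CC037 and at 0.709 to 6.03 CPM in F1s, above both strains.

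Of 34 interferon-stimulated genes, 7 had a strain difference, 5 of them like CC019, and 3 were below the midparent (median -0.3), among them Irf9, a component of the interferon-activated factor (-0.52, adjusted p = 0.0055), lost in males alone (-0.44, adjusted p = 0.053) and with the CC037 x CC019 F1s alone (-0.43, adjusted p = 0.071). Of 30 complement and coagulation genes, 5 had a strain difference and 3 were below the midparent (median -0.11). Of 12 histocompatibility genes, 3 had a strain difference and 1 was below the midparent, B2m, the light chain of class I molecules (1240 to 1740, 1140 to 1980 and 894 to 1280 CPM in CC019, CC037 and F1s, -0.36, adjusted p = 0.0011), with 1 above it. B and plasma cell markers summed to 6.12 to 68.3 CPM in CC019, 30.2 to 434 CPM in CC037 and 13.9 to 89.8 CPM in F1s, led by Ighm, and their part in these groups was not tested.

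Of 35 urea cycle and amino acid genes, 8 had a strain difference and 6 were below the midparent (median -0.13). Of 19 gluconeogenesis and glycolysis genes, 10 had a strain difference, 5 of them like CC037, and 2 were above and 5 below the midparent (median -0.01). Gapdh, a glycolytic enzyme, was at 936 to 1740 CPM in CC019, 1220 to 1740 CPM in CC037 and 856 to 1210 CPM in F1s, below both strains (midparent departure -0.40, adjusted p = 0.00099, lost with the CC019 x CC037 F1s alone, at -0.36, adjusted p = 0.053). Pck1, which commits carbon to gluconeogenesis, was at 1760 to 4190 CPM, 1590 to 3200 CPM and 293 to 3060 CPM (-0.96, adjusted p = 0.012), a call lost in females alone (-0.73, adjusted p = 0.18), in males alone (-1.06, adjusted p = 0.061) and with the CC019 x CC037 F1s alone (-0.45, adjusted p = 0.25). The same held without the CC019 males (-0.65, adjusted p = 0.14) and with the clock score as covariate (-0.59, adjusted p = 0.28).

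Of 27 heat shock and unfolded protein response genes, 6 had a strain difference, 4 of them like CC037, and 4 were below the midparent (median -0.06). Herpud1, a gene of the endoplasmic reticulum stress response, was at 429 to 736 CPM in CC019 males, 203 to 235 CPM in CC019 females, 169 to 292 CPM in CC037 and 111 to 416 CPM in F1s (midparent departure -0.65, adjusted p = 0.024). The call was lost in males alone (-0.51, adjusted p = 0.14), with the CC019 x CC037 F1s alone (-0.51, adjusted p = 0.27), without the 5 livers that held other tissue (-0.59, adjusted p = 0.073) and without the CC019 males (-0.22, adjusted p = 0.47). It was lost as well with the replicate number as block (-0.62, adjusted p = 0.054), with the clock score as covariate (-0.46, adjusted p = 0.26) and without CC019 male 2 (-0.58, adjusted p = 0.052) or male 3 (-0.52, adjusted p = 0.065). Of 19 immediate early genes, 3 were above the midparent (median 0.15), Nr4a1 (adjusted p = 0.0069), Jun (0.93, adjusted p = 0.01) and Dusp1 (0.91, adjusted p = 0.02). The call of Nr4a1 was lost in females alone (0.96, adjusted p = 0.18) and with the CC037 x CC019 F1s alone (0.10, adjusted p = 0.89). The same was seen without the 5 livers that held other tissue (1.57, adjusted p = 0.059) and without the CC019 males (1.78, adjusted p = 0.063). That of Jun was lost in males alone (0.83, adjusted p = 0.26) and with the CC037 x CC019 F1s alone (0.50, adjusted p = 0.24). The call was also lost without the 5 livers that held other tissue (0.77, adjusted p = 0.08) and without the CC019 males (0.90, adjusted p = 0.052). That of Dusp1 was lost in males alone (0.79, adjusted p = 0.2) and with the CC019 x CC037 F1s alone (0.97, adjusted p = 0.087). The same held without the 5 livers that held other tissue (0.88, adjusted p = 0.068). Nr4a1, an orphan nuclear receptor, was at 31.1 to 51.6 CPM in the 3 CC019 x CC037 males and 0.825 to 3.17 CPM in the 3 CC037 x CC019 males, and was higher with a CC019 mother (2.62, adjusted p = 0.028). The males of these crosses also differed in clock phase, whose part was not tested.

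Of 72 cytosolic ribosomal protein genes, 28 had a strain difference, 27 of them higher in CC019, and 12 of the 28 were like CC019, against 27.4% and 19.8% over all genes. F1s were above the midparent at 12 and below it at 1 (median 0.01), against 8.77% and 8.62%. Rpl12 was at 8.28 to 10.5 CPM in CC019, 91.7 to 121 CPM in CC037 and 47.0 to 65.8 CPM in F1s, a position of 0.5, with the CC019 allele lower in all 14 F1s (-4.44, adjusted p = 3.3e-17). Rpl10a was at 80.0 to 114 CPM in CC019, 69.5 to 84.6 CPM in CC037 and 101 to 133 CPM in F1s, and was above both strains (0.31 from CC019, adjusted p = 0.0011). Ribosomal protein genes have many processed copies, so these values are uncertain. Of 17 cell cycle genes, 7 had a strain difference, 6 of them higher in CC019, and the median departure from the midparent was 0.04. Mitochondrially encoded genes were not analysed here.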

How the data were processed

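Liver RNA counts were available here for 30 mice, and 29 entered the comparisons. The authors quantified each library with Salmon 1.9.0 on a diploid transcriptome of both strains and deposited expected counts per gene and allele, of which the totals were used here and rounded to whole numbers. Of 42880 genes, 42455 matched names and GRCm38 positions of GENCODE M21 and 425 did not. Groups came from the labels. Of the genes, 13185 with at least 0.5 CPM in most mice were tested (12779 autosomal) with edgeR 4.0.16 (limma 3.58.1, R 4.3.3), TMM factors and the two-sided quasi-likelihood test in a single fit of CC019, CC037 and F1s. Contrasts gave the strain difference, F1 against each strain and F1 against the midparent, with Benjamini-Hochberg adjustment and a threshold of 0.05. Allelic counts were tested with mouse as block at genes with at least 90% of counts on the own allele in every inbred. The crosses were compared with sex as covariate. Named genes had at least 5 CPM, strains that did not overlap and, for genes like a strain, a midparent call, and were the 3 with the widest strain difference in each direction (outside both strains, those farthest from the nearer strain). AC117239.2 was kept by that rule. List examples and pseudogenes were chosen after their values were seen. Members and lists were chosen with earlier results of these data known. Scripts were tested on simulated data. Alternatives included DESeq2 1.42.0, other filters, sexes, crosses and single mice left out. Precision rests on the spread between mice and on depth, 27672008 to 63258035 counts.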

Additional observations from a re-analysis of the deposited data

Results flagged for a closer look

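In 351 groups of 4 to 10 mice over 118 named genes, 21 had a single mouse far from the others. Chance alone gives about 1 such group in 20, and the count found is close to that share, so the values are descriptions. CC037 female 3 accounted for 6 of them, with 8240 CPM of Saa2 (other CC037 females 15.7 to 67.1), 304 CPM of Saa4 (218 to 238), 1410 CPM of Orm1 (188 to 385), 174 CPM of Bst2 (101 to 118), 1980 CPM of B2m (1330 to 1500) and 59.1 CPM of Pros1 (37.9 to 42.8). Saa2 was also high in F1 CC037 x CC019 female 2 (286 CPM, others 25.8 to 35.0). Lrpap1 was at 301 CPM in CC037 female 2 (118 to 167 in the others) and Tmeff1 at 10.1 CPM in CC037 female 4 (6.42 to 7.24). Arntl was at 17.5 CPM in CC037 male 2 (10.8 to 11.4), Rpl10a at 78.2 CPM in CC037 male 4 (83.7 to 84.6) and Rps2 at 109 CPM in F1 CC037 x CC019 female 4 (80.8 to 88.6). F1 CC037 x CC019 female 3 had 6.2 CPM of Mcm2 (2.84 to 3.61) and 8.24 CPM of Mcm6 (3.37 to 4.07). The other 7 were in genes outside both strains without a strain difference, all pseudogenes but Gm49450. Gm7833 was at 9.58 CPM in CC037 female 2 (7.0 to 7.57) and 0.0263 CPM in F1 CC037 x CC019 female 5 (0 in the others). AC168306.1 was at 2.32 CPM in CC037 male 1 (1.56 to 1.66) and Gm49450 at 0.401 CPM in the same mouse (0 in the others). Rpl7a-ps8 was at 0.0221 CPM in F1 CC037 x CC019 female 2 (0 in the others), Gm7860 at 0.482 CPM in CC037 male 3 (0.164 to 0.185) and Gm12328 at 0.132 CPM in F1 CC037 x CC019 female 5 (0.0252 to 0.0497). For Gm7833 in the F1 and for Rpl7a-ps8 the value is 1 count with the other mice at 0, which lies far from the others by construction.

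The strain difference depended on sex by edgeR's interaction test at 18 of the 118 named genes, against 17.3% of 12779 autosomal genes, so the named genes do not stand out by this count. Values are given as the female minus the male log2 difference of CC019 over CC037. It was 2.54 for Bhlhe41 and 0.79 for Slc10a1. It was negative for Xkr8 (-0.45), Ugt2b37 (-2.84), Gapdh (-0.59), Saa2 (-11.64), Saa4 (-1.99), Orm1 (-1.92) and C2 (-0.52). The same sign was found for Bst2 (-0.80), B2m (-0.54), Dnaja1 (-0.61), Hsp90ab1 (-0.60), Dusp1 (-2.14), Rps2 (-0.49), Herpud1 (-1.64), Hgd (-0.59) and Cyp2d26 (-0.45). A negative value means that CC019 stood higher relative to CC037 in males than in females. In some of these genes the strain direction itself turned between the sexes. Group means of Gapdh were 1050 CPM in CC019 and 1410 CPM in CC037 females, but 1600 and 1420 CPM in males. Those of Hgd were 460 and 600 CPM in females and 596 and 517 CPM in males, in the same order. The part of CC037 female 3 in the values of Saa2, Saa4, Orm1, Bst2 and B2m was not tested. In the same fit, the F1 departure from the midparent depended on sex at 14 of 12779 autosomal genes.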

How the results depend on the processing

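Counts and positions are given under each alternative where the value moved by over 1.5 times (for the position, by over the spread between mice), with the value of all 29 mice in brackets where first used. For each, the cause was not tested unless fewer mice or genes entered. Genes below both strains among the strain-differing (19) were 38 with DESeq2, 11 without a filter on low counts, 48 with sex as covariate and 43 with the CC037 x CC019 F1s alone. Without the filter, 2902 genes were above the midparent (1121) and 884 above both strains (281), and with sex as covariate 386 were below both (254). With the clock gene score, 226 were between both (485), 940 like CC037 (1444), 1302 unresolved (804), 610 above and 458 below the midparent (1101), and 161 below both strains, with a position of 0.298 (0.376). The midparent departures of Bhlhe41 and Npas2 then turned sign, to 0.09 (adjusted p = 0.93) and -0.03 (adjusted p = 0.96), both short of the threshold. Npas2 and Arntl are part of the score, so their adjusted departures are reduced by construction, and Bhlhe41 is not.

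In females alone there were 2098 genes with a strain difference (3497), 289 between both, 539 like CC037, 29 above and 9 below both, 525 unresolved, 672 below the midparent and a position of 0.474. In males alone 417 were like CC019 (693), 2732 like CC037, 1295 unresolved, 739 above and 529 below the midparent, and 153 above and 86 below both strains. With CC019 x CC037 F1s alone there were 219 between both, 894 like CC037, 26 above and 9 below both, 1258 unresolved, 715 above and 366 below the midparent, and 124 below both over all genes. Without the CC019 males, chosen after seeing the data, 2167 genes differed between strains, 601 were like CC037, 28 above and 9 below both, 449 unresolved and 721 below the midparent. At an adjusted p of at most 0.01 there were 264 between both, 391 like CC019, 771 like CC037, 19 above and 4 below both, and 149 above and 104 below both over all genes. Protein-coding genes alone, also chosen after seeing the data, gave 26 and 179 above both. Genes chosen in males had a position of 0.459 in females. Cross differences (579) were 60 without the sex covariate and 873 without 2 F1 livers.

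The same replicate number in several groups does not pair the mice, with correlations of -0.32 to 0.49 over 35 pairs of the same number and -0.45 to 0.39 over 122 others. The replicate block gave 12 genes below both strains and moved no other count by over 1.5 times. Leaving out each of the 29 mice gave strain differences from 2802 (without CC019 male 1) to 3756 (without CC019 female 2), between both 433 to 487, like CC019 602 to 704, like CC037 984 (without CC019 male 1) to 1773 (without CC019 female 2), above both 38 to 55, below both 10 to 31, unresolved 622 to 892, above the midparent 923 to 1268, below it 886 to 1263, above both over all genes 234 to 295, below both 205 to 299, and the position 0.321 to 0.414. Of 3857 values of named genes with a mouse left out, 3748 kept direction and side of the threshold, 73 lost and 36 gained it. The midparent call was lost in 22 of 29 for Bhlhe41 and in 16 for Mapkapk3. Of 1861 values under the other alternatives, 1597 kept both, 222 lost and 40 gained the threshold and 2 turned. Depth limits the genes near 0 in a group, where a fold change depends on the prior count.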

Other observations

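F1s and inbreds came from separate RNA batches, so no F1 difference from a strain can be told apart from batch here, while the strain difference, the allelic ratio and the comparison of crosses stay within a batch. Libraries of inbreds repeated in the F1 batch were not analysed here. Leaving out the 3 CC019 males or using the clock gene score as covariate moved several counts by over 1.5 times. Livers of 5 mice held RNA of other tissues. Pseudogene and ribosomal protein counts depend on how reads were shared among copies. Classes rest on thresholds with 6 to 14 mice a group, and a missed threshold does not show equality.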
